A study of Homo sapiens with 6 samples.

Results

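The integrated stress response genes examined here were TRIB3, ATF4, DDIT3, ATF3, CHAC1, DDIT4, SESN2, CEBPB, PPP1R15A and ATF5, 10 of the 26822 gene symbols in the table. They were taken by exact symbol, and each of them had 1 row. MCF10A, a human epithelial cell line from breast, was treated for 72 hours with 30 nM of either siNT, a non-targeting siRNA, or siPAX9, siRNAs against the transcription factor PAX9, and 3 samples of each group were sequenced. Both groups shared the same untransformed line and medium, and the labels name no agent that induces stress. The comparison asks how mRNA levels differ once PAX9 is depleted. Each locus has 1 pooled FPKM (fragments counted per kilobase of its transcript and per unit of mapped reads) per group, and no value per sample was at hand. The authors' own comparison columns were not used, so the values are given here without a replicate error or a p-value, and the table does not give the reads behind each FPKM. Each change is a difference between the pooled values and was not tested here against the spread between samples.

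In the integrated stress response, kinases that sense amino acid shortage, unfolded protein, viral RNA or lack of haem phosphorylate the translation factor eIF2. Translation then slows in general, while the mRNA of the transcription factor ATF4 is translated more. ATF4 pairs with C/EBP proteins at C/EBP-ATF elements and switches on genes of amino acid supply, of redox balance and of feedback, among them TRIB3, CHAC1, DDIT3 and ATF3. ATF4 is controlled largely at translation, which mRNA levels do not measure.

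The C/EBP-ATF element was searched for as TGATGNAA, with TGATGCAA as its stricter subset, on both strands of the 500 bases to each side of the GENCODE canonical start on GRCh37, which has the coordinates of hg19. This window was added after the data had been seen. Of 19869 starts, 1.53% held TGATGCAA, and so did TRIB3, DDIT3, ATF3 and CHAC1 of the 9 genes with a window. In the RefSeq promoter window, 250 bases before to 50 after the start, CHAC1 alone of the 10 genes held TGATGCAA. ATF3 and CHAC1 held TGATGNAA there, and the shares of gene symbols were 1.08% and 4.46%. The ATF3 match there was TGATGGAA at another start, within chr1:212738499-212738748 on GRCh37. No RefSeq window of ATF3 covered its canonical start at 212782103. DDIT4 had no window around a canonical start. The 30 bases around the matches within 500 bases of canonical starts are printed on the strand of the gene, and capitals mark the match. They are printed because they hold the letters that ATF4 partners are known to bind. For SESN2 the match is to TGATGNAA, which 7.53% of starts held.
TRIB3: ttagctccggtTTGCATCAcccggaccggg
CHAC1: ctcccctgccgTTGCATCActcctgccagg
DDIT3: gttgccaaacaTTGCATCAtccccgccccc
ATF3, upstream site: cctccccgaacTTGCATCAccagtgccccc
ATF3, site at the start: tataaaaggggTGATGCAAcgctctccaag
SESN2: gtgaagtccctTTTCATCAcgcaaccctaa

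The TRIB3 stretch occurs 3 times with the same 30 letters, at chr20:361525-361554, chr20:361558-361587 and chr20:361591-361620, with 33 bases from each copy to the next. The capitals begin 132, 165 and 198 bases after the start at 361404 and lie in an exon of the canonical transcript. TGATGCAA was present at least 2 times at 11 of the 19869 starts and 3 times at 1 of them, TRIB3. The other stretches lie at chr15:41245449-41245478 for CHAC1, chr12:57914585-57914614 on the minus strand for DDIT3, chr1:212781889-212781918 and chr1:212782071-212782100 for ATF3, and chr1:28585722-28585751 for SESN2. Their capitals begin between positions -306 and -21 from the start, outside exons of the canonical transcript, as the map of matches shows. No ATF4, CEBPB, PPP1R15A or ATF5 window held either form. PPP1R15A held the cAMP response element letters TGACGTCA instead, which 3.49% of starts held. A match is a description of letters, and binding was not measured.

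**Figure D1:**
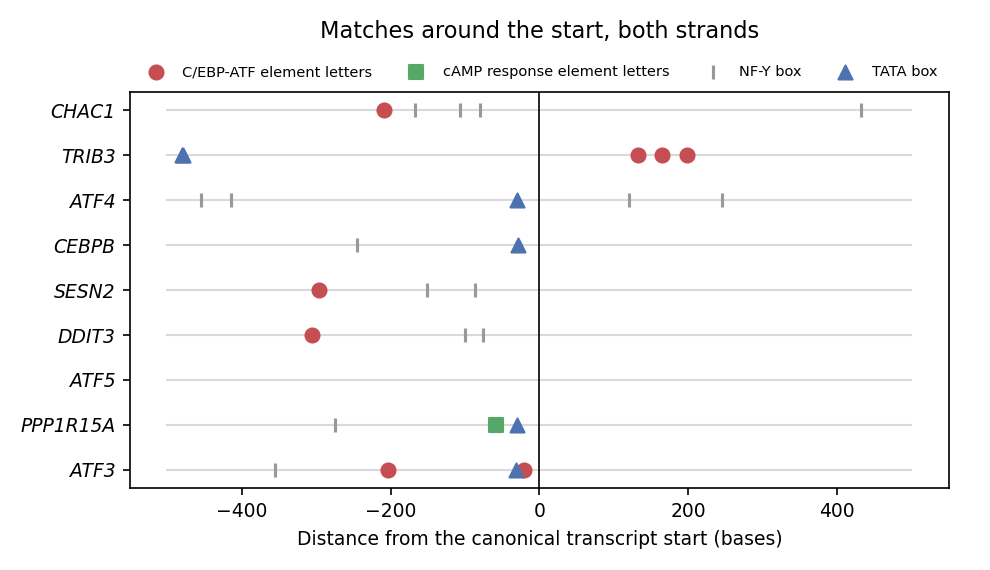
Matches to the C/EBP-ATF element (red circles), the cAMP response element (green squares), the NF-Y box CCAAT (grey bars) and TATAAA (blue triangles) on both strands, by distance in bases from the canonical transcript start, for the 9 genes with a window. The 3 TRIB3 matches lie after the canonical start but before the RefSeq starts of TRIB3, and the other red circles lie before their canonical start.

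CHAC1, TRIB3 and ATF4 were lower in siPAX9, by 7.51, 4.65 and 2.58 times, and the other 7 genes differed by less than 2-fold in either direction. All 10 genes had a mean FPKM of at least 1. Among all 13264 named genes with that level, 6.90% were at least 2-fold lower and 6.82% at least 2-fold higher, and the 10 genes gave 3 lower and 0 higher. With both groups scaled to equal FPKM totals over named loci, the shares of all genes became 4.23% lower and 10.5% higher, the 10 genes again gave 3 lower, and ATF3 passed 2-fold higher. That scaling raises every log2 change by 0.27. As deposited, 5 of the 10 changes were below 0 and 5 above, and no gene changed sign under that scaling. The median log2 change of the 10 genes was -0.22, against -0.07 for all 13264. Under equal FPKM totals these medians were 0.053 and 0.20, and with single-symbol rows only, which drops ATF5, the median of the genes kept was -0.46. In bulk samples, fewer cells of a type and less RNA per cell cannot be told apart.

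**Figure D2:**
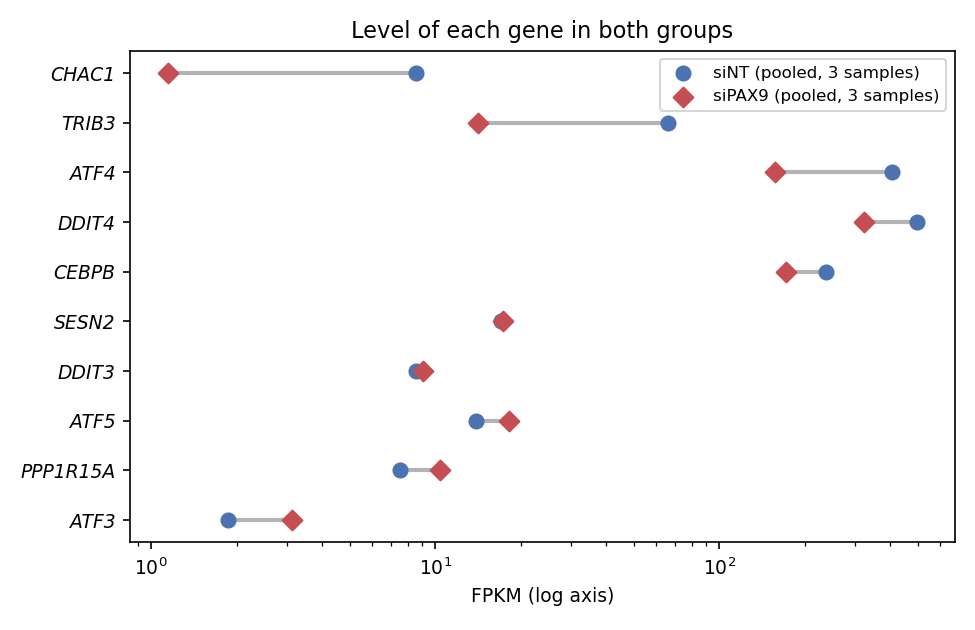
FPKM (log axis) of each of the 10 genes, with blue circles for siNT and red diamonds for siPAX9, each the authors' pooled value of 3 samples and without an error bar. CHAC1, TRIB3 and ATF4 have the widest gaps, and the SESN2 points overlap.

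ATF4 is the transcription factor through which the kinases' signals reach genes. Its FPKM was 404 in siNT and 157 in siPAX9, a log2 change of -1.37, at a locus at chr22:39916564-39918691. It was the second most abundant of the 10 genes per length in siNT and the third in siPAX9. In FPKM its difference of -247 was larger than that of any of the other 9 genes, with -173 for DDIT4 next. Among the 358 named genes within 2-fold of the mean level of ATF4, 11.7% were at least 2-fold lower. ATF4 ranked 488 of 13264 when genes were ordered from the lowest log2 change. The 250 bases before its second RefSeq start lie at chr22:39916317-39916566 on GRCh37, plus strand, and are shown to set a member without a C/EBP-ATF match beside CHAC1. Capitals mark TATAAA, 30 bases before the start. In the RefSeq promoter window 3819 of 27305 gene symbols held these letters at any position on either strand. That window runs from 250 bases before to 50 after the start.
ATF4: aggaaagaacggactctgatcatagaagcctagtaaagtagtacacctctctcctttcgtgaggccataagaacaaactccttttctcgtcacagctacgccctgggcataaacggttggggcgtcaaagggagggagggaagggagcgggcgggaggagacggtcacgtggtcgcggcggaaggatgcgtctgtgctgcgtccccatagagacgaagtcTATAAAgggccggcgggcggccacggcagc

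TRIB3 is a pseudokinase that binds ATF4 and the kinase AKT and dampens ATF4 output. Its FPKM was 65.8 in siNT and 14.1 in siPAX9, a log2 change of -2.22, at chr20:361273-378203. TRIB3 was 16.3% of the ATF4 level in siNT and 9.02% in siPAX9, so it was lower relative to ATF4 as well. Of the 3206 named genes within 2-fold of its mean level, 5.49% were at least 2-fold lower, and TRIB3 ranked 164 from the lowest change of all 13264. The pair of pooled values was nearest to that of TRIB3, by Euclidean distance on the log2 scale, for HMGB2 (63.0 and 14.4 FPKM, distance 0.0665), RPL22L1 (67.9 and 12.6, distance 0.176) and CPVL (56.1 and 12.4, distance 0.301). That likeness rests on 2 pooled values for each gene.

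CHAC1 encodes an enzyme that breaks down glutathione. Its FPKM was 8.60 in siNT and 1.14 in siPAX9, a log2 change of -2.91, at chr15:41245636-41248717, and it ranked 97 from the lowest change. Its siPAX9 value was the lowest of the 10 genes in that group. With 1 FPKM added to both values its log2 change was -2.16, since its level was low. CHAC1 was 2.13% of the ATF4 level in siNT and 0.729% in siPAX9. The 250 bases before its RefSeq start, at chr15:41245419-41245668 on GRCh37, plus strand, are shown because CHAC1 had the largest change. Capitals mark the C/EBP-ATF match and 3 copies of CCAAT in either orientation. In the RefSeq promoter window 39.7% of gene symbols held at least 1 copy of this box, and the share with 3 was not counted.
CHAC1: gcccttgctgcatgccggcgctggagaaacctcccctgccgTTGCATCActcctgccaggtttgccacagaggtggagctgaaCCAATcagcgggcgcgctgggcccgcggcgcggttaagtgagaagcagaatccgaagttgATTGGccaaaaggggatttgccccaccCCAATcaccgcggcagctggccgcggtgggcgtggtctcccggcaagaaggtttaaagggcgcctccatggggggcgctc

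**Figure D3:**
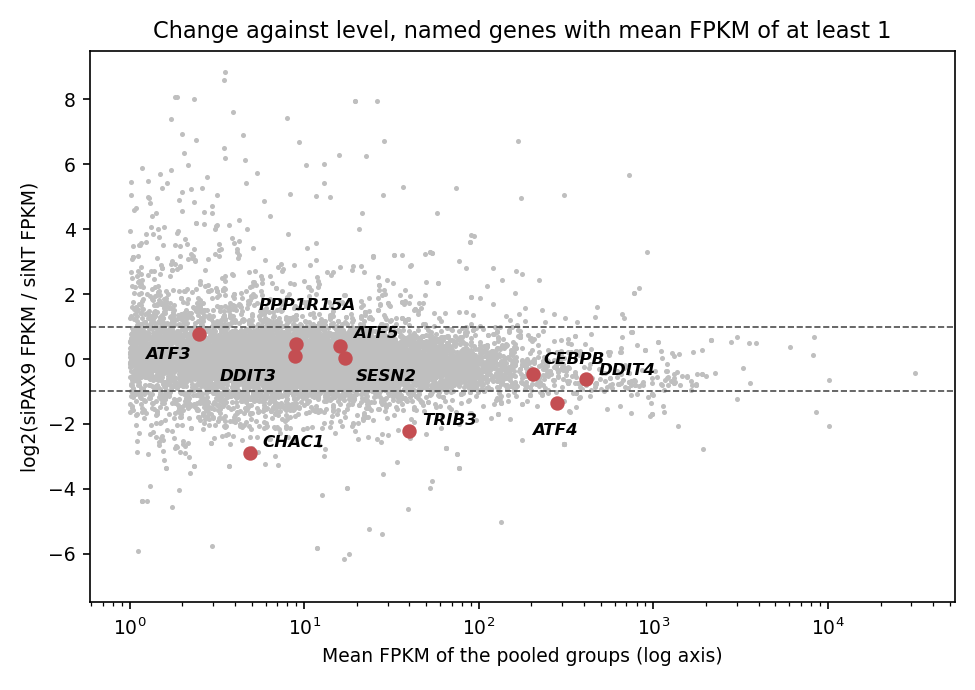
Log2 change of siPAX9 over siNT against the mean FPKM of both pooled groups (log axis) for named genes with mean FPKM of at least 1 and above 0 in both groups, with the 10 genes in red and dashed lines at 2-fold. Of 13145 such genes 4 lie outside the plotted range. CHAC1, TRIB3 and ATF4 lie under the lower line at low, middle and high levels.

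DDIT3, also called CHOP, is a C/EBP relative that drives stress-induced death. Its FPKM was 8.53 in siNT and 9.08 in siPAX9, a log2 change of 0.09. In siNT it stood at nearly the level of CHAC1, and in siPAX9 it was at 9.08 against 1.14. DDIT3 was 2.11% of the ATF4 level in siNT and 5.79% in siPAX9. Its locus at chr12:57853918-57914300 was shared with rows for ARHGAP9, GLI1, MIR616 and MARS. The MARS row, a tRNA synthetase, was 46.0 in siNT and 22.9 in siPAX9, and the MIR616 row was 26.2 and 0. The sources used here do not state whether counting used strand.

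ATF3, a factor that often represses its targets, was at 1.86 FPKM in siNT and 3.15 in siPAX9, at chr1:212738676-212794119. Its log2 change of 0.76 was the highest of the 10 genes and became 0.54 with 1 FPKM added. ATF5, a relative of ATF4 that is likewise controlled at translation, was 13.9 in siNT and 18.2 in siPAX9, a log2 change of 0.39. Its row at chr19:50392913-50437193 also named MIR4751. That locus was shared with a row for IL4I1 and NUP62, at 23.0 in siNT and 20.0 in siPAX9. CEBPB, a partner of ATF4 on DNA, was 237 in siNT and 172 in siPAX9, a log2 change of -0.46, at chr20:48801140-48809227. CEBPB passed from below ATF4 to above it, from 58.7% to 110% of the ATF4 level. None of these factors passed 2-fold as deposited.

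PPP1R15A, DDIT4 and SESN2, which act on translation and growth, were within 2-fold. PPP1R15A, also called GADD34, brings a phosphatase to eIF2 and so restores translation. Its FPKM was 7.50 in siNT and 10.4 in siPAX9, a log2 change of 0.47, at chr19:49375649-49379319. DDIT4, also called REDD1, restrains the growth kinase complex mTORC1 and was the most abundant of the 10 genes per length in both groups. Its FPKM was 498 in siNT and 325 in siPAX9, a log2 change of -0.62, at chr10:74033677-74035797. SESN2, which senses leucine and restrains mTORC1, was 17.0 in siNT and 17.3 in siPAX9, a log2 change of 0.03, at chr1:28585963-28609007.

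The order of levels changed little at the top and more at the bottom. In siNT it ran DDIT4, ATF4, CEBPB, TRIB3, SESN2, ATF5, CHAC1, DDIT3, PPP1R15A and ATF3, and in siPAX9 it ran DDIT4, CEBPB, ATF4, ATF5, SESN2, TRIB3, PPP1R15A, DDIT3, ATF3 and CHAC1. Whether neighbours in either order differ beyond their spread was not tested, since the table holds no replicate values. ATF4, DDIT4 and CEBPB together made up 90.2% of the summed FPKM of the 10 genes in siNT and 89.9% in siPAX9, and the sum was 1263 and 727. The median level was 15.4 and 15.7.

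The genes upstream of ATF4 were mostly within 2-fold. Of 8 genes for eIF2 kinases and their activators, 0 passed 2-fold in either direction, beside 6.90% of all genes lower and 6.82% higher. Their median log2 change was -0.14. EIF2AK1, the haem-regulated kinase, was 23.7 and 21.3 FPKM in siNT and siPAX9. EIF2AK3, the kinase of the endoplasmic reticulum, was 4.85 and 4.47. EIF2AK4, the amino acid sensor, was 15.5 and 19.0, and EIF2AK2, which binds double-stranded RNA, was 10.9 and 19.8, a log2 change of 0.86. Of 9 genes for subunits of eIF2, its exchange factor eIF2B and EIF2A, 2 (22.2%) were at least 2-fold lower, beside the same 6.90%. Their median was -0.31. EIF2S3, the gamma subunit, was 184 in siNT and 80.3 in siPAX9. EIF2A, an initiation factor distinct from the eIF2 alpha subunit, was 48.8 and 20.0. EIF2S1, the alpha subunit that is phosphorylated, was 29.6 and 32.4, and EIF2S2, the beta subunit, was 50.9 and 28.9.

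The relatives of the 10 genes gave 1 (20%) at least 2-fold lower among the 5 of 7 with a mean FPKM of at least 1. The share among all genes was 6.90%. The lower relative was TRIB2, a pseudokinase like TRIB3, with 19.7 FPKM in siNT and 8.39 in siPAX9. TRIB1 was 13.1 and 8.31, CHAC2 was 9.58 and 5.66, SESN1 was 29.3 and 18.0, and PPP1R15B was 43.2 and 54.6. Under that minimum, SESN3 was 0.35 and 1.37 and DDIT4L was listed at 0.02 in both groups. Other factors of the ATF, C/EBP and CREB families and their relatives numbered 15 with a mean FPKM of at least 1. Of these, 0 were at least 2-fold lower or higher, beside 6.90% and 6.82% of all genes. Their median log2 change was -0.33. Another 5 were under that minimum, among them BATF3 at 1.41 and 0.27 FPKM and BATF2 at 0.19 and 0.54.

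Among other known targets of ATF4, more were at least 2-fold lower in siPAX9 than at least 2-fold higher. Of 43 listed, 38 had a mean FPKM of at least 1, and 15 of those (39.5%) were at least 2-fold lower and 0 higher, beside the 6.90% of all genes. Of these 15, CBS and SLC1A4 (1.66 FPKM in siNT and 0.499 in siPAX9) passed the minimum only through siNT, where they were higher, and without them 13 of 36 were lower. The 5 targets under the minimum, CTH, VLDLR, FGF21, ADM2 and INHBE, were also lower in siPAX9, 4 of them at least 2-fold. For the 38, the median log2 change was -0.85, and 30 were below 0, as were 55.3% of all 13264 named genes. Earlier results of these data were known when the list was written, so the count is a description. Among the 38, the largest changes were those of 8 genes. They included PHGDH (45.5 FPKM in siNT and 1.20 in siPAX9) and PSAT1 (98.4 and 22.6) of serine synthesis. ASNS (44.4 and 7.98), which makes asparagine, and ALDH1L2 (22.9 and 3.33) of mitochondrial folate metabolism were also among them. The others were CBS (2.94 and 0.29), PCK2 (9.58 and 2.21), EIF4EBP1, a translation repressor (122 and 30.5), and STC2, a secreted glycoprotein (34.1 and 9.19). The CBS row also named its near-identical copy CBSL, so its value is uncertain.

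Split by role, a split made after the values were seen, 8 of the 9 listed enzymes of amino acid and one-carbon metabolism passed the minimum, CBS only through siNT, and these 8 were at least 2-fold lower, with a median log2 change of -2.30. The other, CTH, was at 1.17 FPKM in siNT and 0.631 in siPAX9. All 9 tRNA synthetase and tRNA export genes were below 0, and 3 of them were at least 2-fold lower. Of 8 amino acid transporters 2 were at least 2-fold lower, SLC1A4 among them, with a median of -0.36. Of 3 secreted proteins 1 was at least 2-fold lower, with a median of -0.79. The remaining 10 genes, among them CEBPG, SQSTM1 and KLHL24, gave 1 lower and a median of 0.01, near the values of DDIT3 and SESN2. TRIB3 and CHAC1 had changes in the range of the enzymes, which ran from -5.24 to -1.62. So did EIF4EBP1 (-2.01), STC2 (-1.89) and SLC1A4 (-1.74) of the other roles.

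**Figure D4:**
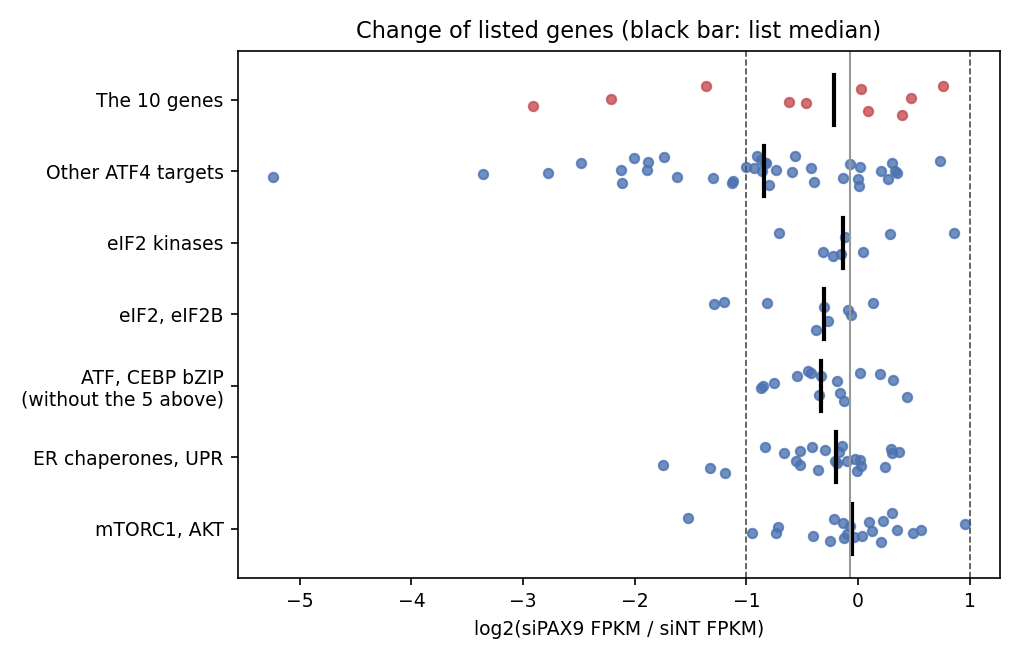
Log2 change of siPAX9 over siNT for the 10 genes (red) and for 6 gene lists (blue), 1 point per gene with mean FPKM of at least 1. Black bars are list medians, the grey line is the median of all named genes and dashed lines mark 2-fold. Other ATF4 targets have the lowest median, and the kinases lie within 2-fold.

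These targets were also divided by the C/EBP-ATF letters. Of the 16 measured targets with TGATGCAA within 500 bases of the start, 7 (43.8%) were at least 2-fold lower, and of the 22 without it 8 (36.4%) were. The medians were -0.86 and -0.68. Without CBS and SLC1A4, which both held the letters, 5 of 14 (35.7%) with them were lower. PHGDH and ASNS were among those without the exact letters. Among all measured genes with a window, 25 of the 135 with TGATGCAA (18.5%) were at least 2-fold lower and 10 (7.41%) higher, against 700 (6.14%) and 655 (5.75%) of the 11401 without. Leaving out the 10 genes and the listed targets, 16 of 115 (13.9%) were lower. Among the 4 genes examined here that held these letters, TRIB3 and CHAC1 were lower, and DDIT3 and ATF3 were at log2 changes of 0.09 and 0.76.

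**Figure D5:**
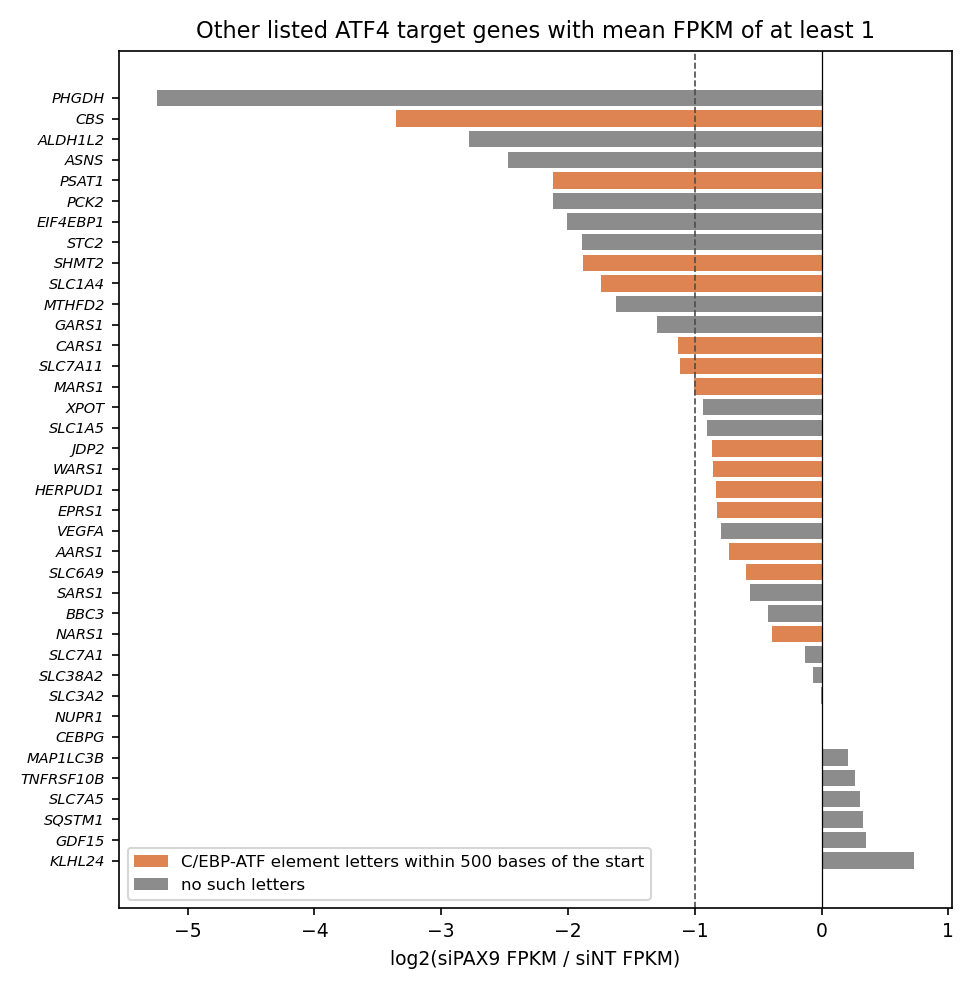
Log2 change of siPAX9 over siNT for the 38 other listed ATF4 targets with mean FPKM of at least 1, in orange where the C/EBP-ATF letters TGATGCAA occur within 500 bases of the start and in grey where they do not. Bars start at 0 and the dashed line marks 2-fold lower. Orange and grey bars occur over most of the range, and no bar reaches 2-fold higher.

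The unfolded protein response shares the kinase EIF2AK3 with the integrated stress response. Of 24 of its genes, 3 (12.5%) were at least 2-fold lower and 0 higher, beside 6.90% and 6.82% of all genes. Their median log2 change was -0.20. The lower ones were PDIA6 (94.8 and 28.3 FPKM), XBP1 (66.2 and 26.4) and PDIA4 (62.4 and 27.4). The chaperone HSPA5, its usual readout, was 96.5 and 85.9. Of 22 measured regulators of mTORC1 and AKT, on which DDIT4, SESN2 and TRIB3 act, 1 (4.55%) was at least 2-fold lower, SEH1L (33.7 and 11.7). None was at least 2-fold higher, and the shares of all genes were the same 6.90% and 6.82%. The median of these regulators was -0.05.

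PAX9, at chr14:37126773-37642998, was 2.80 FPKM in siNT and 0.325 in siPAX9. All 10 genes listed as basal breast epithelial markers had a mean FPKM of at least 1. Of these, 1 was at least 2-fold higher, CDH1 (45.3 and 124), and 0 lower, beside 6.82% and 6.90% of all genes. The log2 change was below 0 for 4 of the 10. Their summed level was 3908 and 4634. The 6 luminal markers summed to 271 and 188, with KRT18 at 212 and 119, KRT8 at 51.7 and 58.7, GATA3 at 6.19 and 7.56, FOXA1 at 1.10 and 2.86, and ESR1 and PGR under a mean FPKM of 1. The 7 fibroblast markers summed to 6.40 in siNT and 42.2 in siPAX9, with DCN at 5.85 and 37.9 and COL1A1 at 0.45 and 4.13, and 2 and 1 of the 7 were listed at 0. The 7 immune and endothelial markers summed to 5.99 and 4.37, with 3 and 2 of them at 0, PECAM1 at 2.58 and 0.50 and CD68 at 3.38 and 3.77. The part of these marker differences in the values of the 10 genes was not tested.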

How the data were processed

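Poly(A)+ RNA of MCF10A cells was sequenced as single-end reads, 3 samples for siNT and 3 for siPAX9. The authors worked in Partek Flow, where Bowtie 2 placed the reads on hg19 and Cufflinks estimated levels, and deposited 1 pooled FPKM per group for each of 41656 loci. How libraries were normalized against each other, the annotation and the use of strand are not given in the sources used here. The deposited fold change, test statistic, p-value and q-value columns were not used. No depth, replicate value or SD accompanies an FPKM.

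The log2 change is log2(siPAX9/siNT) with no pseudocount. A symbol took its row with the highest mean FPKM. Counts used a 2-fold limit and a mean FPKM of at least 1. Shares of all genes were also given 95% Wilson intervals, 6.48 to 7.34% for lower and 6.40 to 7.26% for higher, which cover counting error only. The 10 genes and the lists were chosen with earlier results of these data known. Named genes were the 10 genes, PAX9, the eIF2 kinases and subunits, relatives of the 10 genes, the 3 single-symbol genes nearest to TRIB3 and, of each other list, at most the 8 largest changes past 2-fold in each direction. MARS, EIF2A, HSPA5, CEBPG, SQSTM1, KLHL24, ESR1, PGR, KRT18, KRT8, GATA3, CD68, SLC1A4, CTH, VLDLR, FGF21, ADM2 and INHBE were added after their values were seen. So were BATF2, BATF3 and the rows that share a locus with DDIT3 or ATF5.

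Promoter letters were searched on both strands in RefSeq promoters (GRCh38.p14, 27305 symbols, 250 bases before to 50 after the start), placed on GRCh37 by exact match, and around GENCODE canonical starts on GRCh37. Proteins were not analysed here. The counting and the search were tested on simulated data. Python 3.11.15, numpy 2.4.6, pandas 2.3.3, scipy 1.17.1, pysam 0.24.0, samtools 1.23.1 and matplotlib 3.10.9 were used. Alternatives changed the fold limit, pseudocount, centring, scaling, row choice, minimum FPKM and search window.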

Additional observations from a re-analysis of the deposited data

How the results depend on the processing

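No paired analysis was possible because the deposited table gives 1 pooled value per group, and for the same reason no sample could be left out. The count of 3 lower genes became 4 at a 1.5-fold limit, where DDIT4 joined, and 2 at a 4-fold limit. It was 3 under the other settings that kept all 10 genes, and no single gene reversed its direction. At a 1.5-fold limit, 1 of the 10 genes was higher, 16.7% of all genes were lower and 13.7% higher, and 24 other ATF4 targets were lower. At 4-fold these were 1.56% and 2.74% of all genes and 7 targets. With 1 FPKM added, 4.93% of all genes were lower and 4.80% higher, and centred on the median 6.03% and 7.52%. With no minimum FPKM the shares were 8.15% and 13.7%, and with a mean of at least 5, which kept 8 of the 10 genes and 2 of the 3 lower ones, 5.75% and 4.34%. Keeping single-symbol rows removed ATF5 and moved the median of the 10 genes to -0.46. Equal FPKM totals, an alternative chosen after seeing the data, gave 1 of the 10 genes higher, 4.23% of all genes lower and 10.5% higher, and a median of 0.053 for the 10 genes. In the RefSeq promoter window 2 of the 10 genes held TGATGNAA, ATF3 and CHAC1. On the gene strand only, or for TGATGCAA only, 1 did, and within 500 bases of canonical starts, also added after seeing the data, 5 of the 9 genes searched did. The cause of these shifts was not tested. The table gives no reads behind an FPKM, which limits the genes with the lowest FPKM most, ATF3 and CHAC1.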
